A study of Bos taurus with 8 samples.

Results

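The aminoacyl-tRNA synthetases are the enzymes that join each amino acid to its transfer RNA, and their transcripts were followed across 8 libraries of bovine cleavage-stage embryos. Members were found by symbol: a letter followed by ARS and an optional 1 or 2, together with EPRS1, FARSA and FARSB, and with AIMP1 and AIMP2, which are scaffold proteins and not enzymes. The deposited table of 16606 genes holds 38 such genes. Of these, 20 are cytosolic enzymes, 16 are mitochondrial enzymes, whose symbols end in 2, and 2 are the scaffolds. The rule leaves out EEF1E1, the remaining scaffold of the same complex, and the mitochondrial enzyme NARS2 was not analysed here. All 38 symbols matched a gene in RefSeq's bovine annotation.

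Each synthetase recognises its own amino acid and a matching set of tRNAs, and links them at the cost of ATP, so that the ribosome can read a codon as an amino acid. Animal cells keep separate enzymes, all encoded in the nucleus, for the cytosol and for the small translation system inside mitochondria, and the genes GARS1 and KARS1 supply both places. Several cytosolic enzymes are held together in the multisynthetase complex, whose scaffolds are AIMP1, AIMP2 and EEF1E1. In the early cleavage-stage embryo most transcripts are still those the oocyte stored, and the embryo's own genes are activated in earnest around the 8-cell stage in cattle.

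The 4 groups, with 2 libraries in each and 5 embryos in each library, were control and edited embryos at the 4-cell stage and at the 8-cell stage. All came from abattoir oocytes matured and fertilised in vitro with Holstein semen. Edited zygotes had received PEmax, a prime editor, which nicks DNA and copies the wanted change in from its guide, and a guide RNA by injection into the cytoplasm, to write the change labelled A148G into RPL12, a gene of the large ribosomal subunit. The labels do not say from where that position is counted, what share of alleles carried the change, whether control embryos were injected, or whether libraries of a group came from separate fertilisations, so p-values measure the spread between these libraries, which may be technical. The titles call the edited samples base edited, and the 4-cell samples have oocytes as their source name.

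Between 33527531 and 35122409 reads per library could be recovered from the deposited values, which are CPM, reads scaled to a common library total. At this depth 3 reads correspond to at most 0.0899 CPM, below the level of every member in every library. RPL12 itself stood at 159 and 174 CPM in 4-cell controls, 27.5 and 33.6 CPM in 4-cell edited embryos, 96.3 and 97.6 CPM in 8-cell controls, and 14.1 and 11.9 CPM in 8-cell edited embryos. Oocyte and cleavage-stage markers (15 of 16 listed were in the table) summed to 19068 and 25461 CPM in 4-cell controls, 48815 and 57537 CPM in 4-cell edited embryos, 49578 and 36748 CPM in 8-cell controls, and 51796 and 54901 CPM in 8-cell edited embryos. None of the 15 was at 0, and 6 were called higher and 0 lower with editing at the 4-cell stage, 2 and 0 at the 8-cell stage, and 7 and 0 on the average. Markers of cumulus and granulosa cells, the follicle cells around the oocyte, were present too (20 of 21 in the table) and summed to 1814 and 1423 CPM in 4-cell controls, 463 and 514 CPM in 4-cell edited embryos, 639 and 933 CPM in 8-cell controls, and 493 and 465 CPM in 8-cell edited embryos. Of 18 such markers tested, 12 were called lower and 2 higher with editing at the 4-cell stage, and 5 lower and 0 higher at the 8-cell stage. Over all genes tested 25.8% were called lower and 18.9% higher at the 4-cell stage, and 14.5% and 1.08% at the 8-cell stage. On the average of both stages these shares were 27.2% and 17.6%. LHCGR, TNFAIP6 or FOXL2 was at 0 in each library, whereas HSD3B1, a steroid-making enzyme, stood at 283 and 283 CPM in 4-cell controls and at 5.87 and 17.8 CPM in 4-cell edited embryos. The part of either marker group in the results below was not tested beyond the fit described with the limits, and fewer cells of a type and less RNA per cell cannot be told apart in such pools.

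Cytosolic synthetase transcripts were lower in edited embryos for most enzymes, and none was called higher in the main limma fit. On the average of both stages 14 of 20 cytosolic enzymes fell, with a median log2 fold change of -0.75 over all 20. Of the 12129 genes tested, 44.8% were called in this comparison, 27.2% lower and 17.6% higher, and the median of all genes was 0.04. Both scaffolds fell as well. Of the mitochondrial enzymes, 13 of 16 reached the expression filter, a mean of at least 1 CPM over the 8 libraries. Among these FARS2 and IARS2 fell, RARS2 rose, and the other 10 were not called. The averaged call of RARS2 was lost without the second 8-cell edited library. A gene is called here at an adjusted p-value under 0.05 in limma's moderated test on log2(CPM + 1), adjusted over all 12129 genes. Fold changes are on that scale and understate changes of weakly expressed genes.

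At the 4-cell stage 13 of 20 cytosolic enzymes were called lower and 0 higher, where 44.7% of all genes tested were called, 25.8% lower and 18.9% higher. Among 8-cell embryos 6 of 20 were called lower and 0 higher, where 15.6% of all genes were called, 14.5% lower and 1.08% higher. The 8-cell count rests on few libraries: it was 2 without the second control library and 3 without either edited library. The 20 had a median log2 fold change of -0.99 in 4-cell and -0.64 in 8-cell embryos, while the median of all genes was -0.02 and 0.00. AARS1, FARSB, HARS1, QARS1 and YARS1 were called lower at both stages, of which FARSB and YARS1 kept both calls when any 1 library was left out. In 12 of the 20 cytosolic enzymes every edited library lay below every control library of either stage, which held for 19.6% of all genes tested. Every edited library lay above every control library for none of the 38 members, against 9.98% of all genes.

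**Figure D1:**
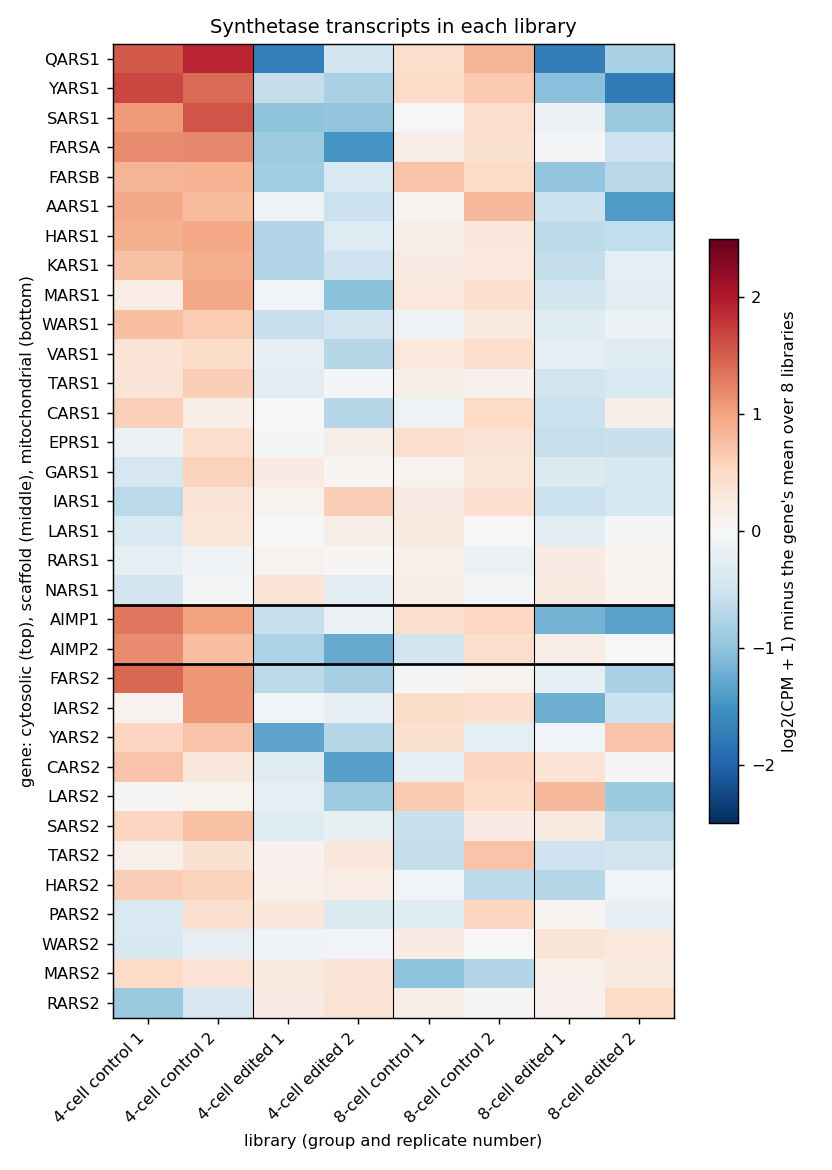
Heat map of 33 tested members (rows) in the 8 libraries (columns), coloured by log2(CPM + 1) minus each gene's mean over the libraries. Cytosolic enzymes are at the top, the 2 scaffolds in the middle and mitochondrial enzymes at the bottom, each block ordered by the average change with editing, and the 4-cell control columns are the reddest for most cytosolic rows.

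The multisynthetase complex was considered first, since its enzymes are assembled together. Of its 8 enzymes, 5 fell over both stages together, QARS1, KARS1, MARS1 and EPRS1 among them, and RARS1, LARS1 and IARS1 were not called. Over all genes tested 27.2% were called lower on that average. QARS1, which charges glutamine, stood at 23.4 and 30.8 CPM in 4-cell controls and at 1.59 and 5.06 CPM in 4-cell edited embryos. Among 8-cell libraries QARS1 stood at 10.5 and 14.2 CPM in controls and at 1.55 and 3.80 CPM in edited embryos. The edited and control libraries of QARS1 did not overlap at either stage, and the log2 fold changes were -2.81 (SE 0.445, adjusted p-value 0.00012) at the 4-cell and -1.91 (SE 0.445, adjusted p-value 0.0062) at the 8-cell stage. The 8-cell call of QARS1 was lost without the second control or the first edited library of that stage.

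KARS1, the lysyl enzyme of both the cytosol and mitochondria, stood at 243 and 271 CPM in 4-cell controls, 85.0 and 100.3 CPM in 4-cell edited embryos, 168 and 173 CPM in 8-cell controls, and 95.6 and 123 CPM in 8-cell edited embryos. All 4 edited libraries lay below all 4 controls for KARS1. The change was called in 4-cell embryos (log2 fold change -1.46, SE 0.222, adjusted p-value 8.18e-05) and missed the threshold at the 8-cell stage (-0.65, adjusted p-value 0.058). GARS1, the glycyl enzyme that likewise serves both places, had overlapping groups in 4-cell embryos, with 63.5 and 129 CPM in controls against 98.7 and 88.3 CPM in edited embryos. Its 8-cell groups did not overlap, with 90.6 and 106 CPM in controls against 66.8 and 63.2 CPM in edited embryos, and the log2 fold change of -0.59 was not called.

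MARS1, the methionyl enzyme, stood at 20.5 and 35.6 CPM in 4-cell controls and at 17.1 and 8.28 CPM in 4-cell edited embryos. The log2 fold change of MARS1 was -1.12 (SE 0.365, adjusted p-value 0.0205), and the 8-cell value of -0.71 was not called. The 4-cell call of MARS1 was lost without the second library of either 4-cell group, and also with no filter on low values.

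EPRS1, which charges both glutamate and proline, differed from the others in the stage at which it was called. Its 4-cell libraries overlapped, at 154 and 230 CPM in controls and 166 and 188 CPM in edited embryos. In 8-cell embryos EPRS1 stood at 224 and 213 CPM in controls and at 114 and 115 CPM in edited embryos (log2 fold change -0.93, SE 0.23, adjusted p-value 0.00966). The 8-cell call of EPRS1 was lost without any 1 of the 4 8-cell libraries. The difference between these stage effects was itself not called (-0.84, SE 0.326, adjusted p-value 0.136).

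The arginyl, leucyl and isoleucyl enzymes of the complex were not called in any comparison between edited and control embryos in the main limma fit. RARS1 stood at 570 and 627 CPM in 4-cell controls, 708 and 683 CPM in 4-cell edited embryos, 728 and 597 CPM in 8-cell controls, and 775 and 696 CPM in 8-cell edited embryos. The average log2 fold change of RARS1 was 0.19 (SE 0.144, adjusted p-value 0.306). LARS1 ranged from 61.6 to 99.3 CPM over the 8 libraries, with overlapping groups at the 4-cell stage. Its 8-cell libraries did not overlap, at 95.7 and 79.5 CPM in controls and 65.5 and 77.9 CPM in edited embryos, and the log2 fold change of -0.28 was not called. IARS1 had log2 fold changes of 0.53 in 4-cell and -0.80 in 8-cell embryos, neither of them called, and 34.1 and 68.9 CPM in the 4-cell controls alone.

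A difference of the effect between stages was called for AIMP2 and not for AIMP1 (-0.19, adjusted p-value 0.776). The 2 scaffolds were not tested against each other. AIMP1, which is also the precursor of a secreted cytokine, stood at 228 and 182 CPM in 4-cell controls and 60.9 and 82.0 CPM in 4-cell edited embryos. At the 8-cell stage AIMP1 stood at 119 and 131 CPM in controls and 39.7 and 35.4 CPM in edited embryos. Edited libraries of AIMP1 were below all controls at both stages, with log2 fold changes of -1.51 (SE 0.239, adjusted p-value 0.000117) and -1.71 (SE 0.239, adjusted p-value 9.83e-05).

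AIMP2, the scaffold around which the complex is built, stood at 112 and 83.0 CPM in 4-cell controls and at 28.1 and 19.9 CPM in 4-cell edited embryos. In 8-cell embryos AIMP2 stood at 35.2 and 66.7 CPM in controls and at 55.3 and 49.0 CPM in edited embryos. AIMP2 was thus lower in 4-cell edited embryos (log2 fold change -1.99, SE 0.309, adjusted p-value 0.000105), whereas at the 8-cell stage the edited libraries lay between the controls (0.10, SE 0.309, adjusted p-value 0.871). The difference of the effect between stages was 2.09 (SE 0.437, adjusted p-value 0.026), and AIMP2 was the only 1 of 35 tested members called in that comparison, where 3.96% of all genes were called, 1.95% in this direction. With recovered reads and edgeR the difference was 2.02 and missed the threshold (adjusted p-value 0.0655), where 18 of 14629 genes were called. The call was also lost when any 1 of 6 of the 8 libraries was left out. EEF1E1, the remaining scaffold, was at 148 and 106 CPM in 4-cell controls and 114 and 179 CPM in 4-cell edited embryos, with log2 fold changes of 0.19 and -0.20 that were not called.

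**Figure D2:**
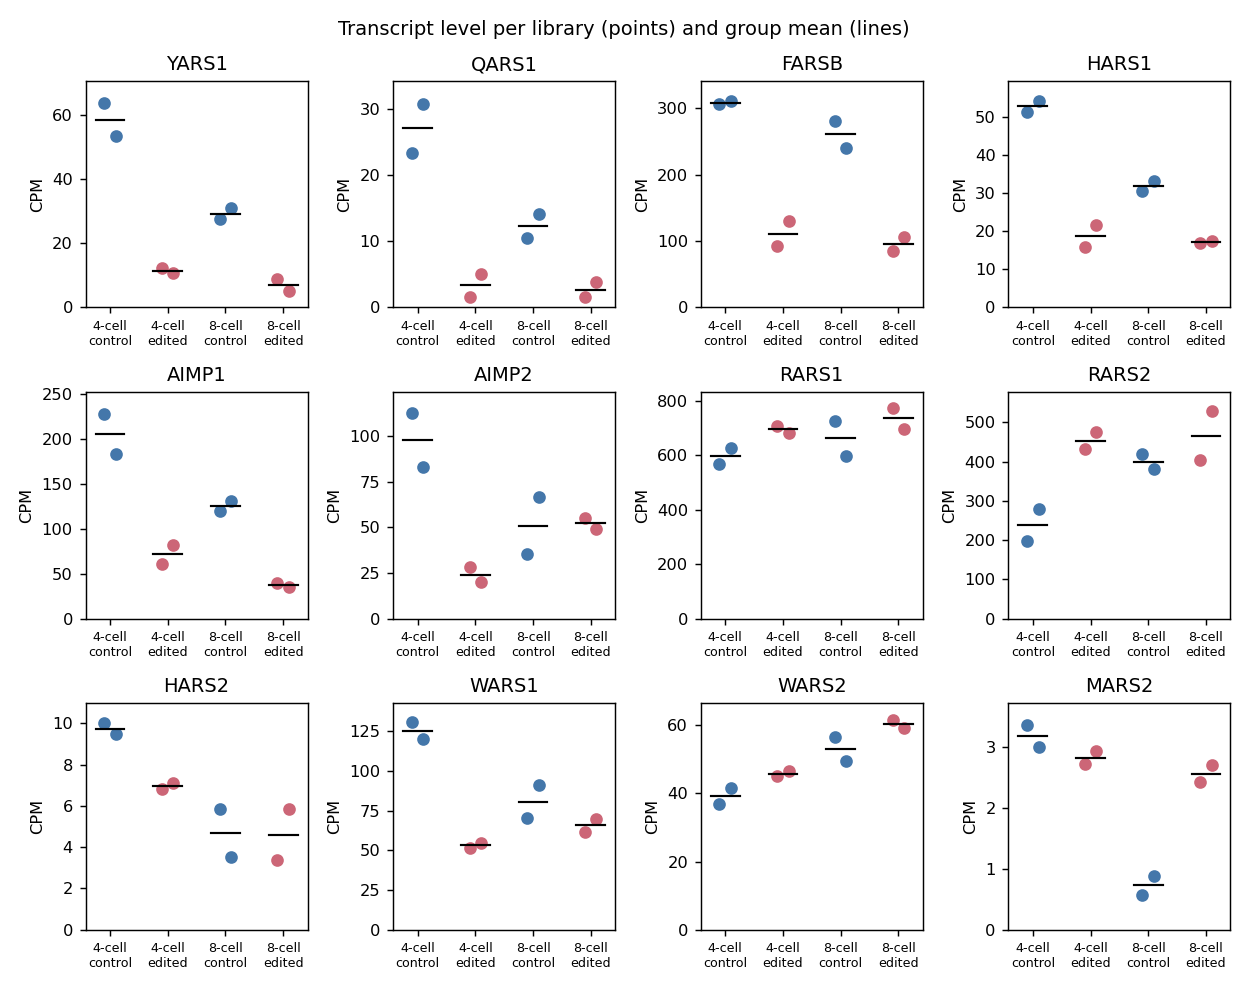
Level of 12 members in CPM on linear axes from 0, with a point per library (blue for control, red for edited) and a line at each group's mean. YARS1, QARS1, FARSB, HARS1 and AIMP1 are lower in edited libraries at both stages, AIMP2 at the 4-cell stage, and RARS2 is lowest in the 4-cell controls (198 and 279 CPM).

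The 12 cytosolic enzymes outside the complex gave 9 called lower at the 4-cell stage and 4 at the 8-cell stage, with a median log2 fold change of -1.21 and -0.61. Over all genes tested 25.8% and 14.5% were called lower. YARS1, the tyrosyl enzyme, stood at 63.7 and 53.4 CPM in 4-cell controls and 12.4 and 10.6 CPM in 4-cell edited embryos. Among 8-cell libraries YARS1 stood at 27.5 and 31.1 CPM in controls and 8.82 and 5.00 CPM in edited embryos. Every edited library of YARS1 was under 13 CPM and every control library above 27, and the log2 fold changes were -2.25 (SE 0.318, adjusted p-value 4.66e-05) and -1.98 (SE 0.318, adjusted p-value 0.000325).

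Cytosolic phenylalanyl-tRNA synthetase is built of an alpha subunit, FARSA, and a beta subunit, FARSB, from separate genes. FARSB stood at 307 and 310 CPM in 4-cell controls, 92.7 and 130 CPM in 4-cell edited embryos, 280 and 240 CPM in 8-cell controls, and 85.4 and 105 CPM in 8-cell edited embryos. Its changes at the stages were close, at -1.48 and -1.44 (SE 0.23 each, adjusted p-values 0.000101 and 0.000306). FARSA stood at 18.4 and 18.4 CPM in 4-cell controls, 3.59 and 2.08 CPM in 4-cell edited embryos, 8.58 and 10.0 CPM in 8-cell controls, and 7.17 and 4.94 CPM in 8-cell edited embryos. FARSA fell by 2.37 on the log2 scale at the 4-cell stage (SE 0.364, adjusted p-value 9.42e-05), and its 8-cell value of -0.56 was not called (adjusted p-value 0.354). The difference between stages for FARSA, 1.81, had an adjusted p-value of 0.0591 and so missed the threshold.

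SARS1, the seryl enzyme, stood at 97.2 and 138 CPM in 4-cell controls and at 22.5 and 22.7 CPM in 4-cell edited embryos (log2 fold change -2.31, SE 0.3, adjusted p-value 2.17e-05). At the 8-cell stage SARS1 stood at 45.4 and 62.2 CPM in controls and 41.2 and 23.8 CPM in edited embryos, a change of -0.74 that was not called. As for FARSA, the difference of the stage effects of SARS1 (1.56, SE 0.424) was just above the threshold, with an adjusted p-value of 0.0508.

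HARS1, the histidyl enzyme, stood at 51.5 and 54.3 CPM in 4-cell controls, 15.9 and 21.6 CPM in 4-cell edited embryos, 30.7 and 33.3 CPM in 8-cell controls, and 17.0 and 17.5 CPM in 8-cell edited embryos. The log2 fold changes of HARS1 were -1.46 (SE 0.276, adjusted p-value 0.000525) and -0.85 (SE 0.276, adjusted p-value 0.0466). The 8-cell call of HARS1 held in 9 of 20 other settings: it was lost with TMM factors (0.0669), edgeR, the replicate block (0.0665), a pseudocount of 5 CPM, no filter, median centring and the marker covariate, and without any 1 of the 4 8-cell libraries. AARS1, the alanyl enzyme, stood at 15.9 and 14.2 CPM in 4-cell controls, 7.09 and 5.03 CPM in 4-cell edited embryos, 8.15 and 14.5 CPM in 8-cell controls, and 5.02 and 2.31 CPM in 8-cell edited embryos. For both enzymes the edited libraries were all below the controls, and AARS1 had log2 fold changes of -1.20 (adjusted p-value 0.0232) and -1.41 (adjusted p-value 0.0225). The calls of AARS1 were lost in 4-cell embryos without either control or the second edited library, and in 8-cell embryos without the second library of either group. Both calls of AARS1 were also lost with no filter on low values and with the marker covariate.

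WARS1, the tryptophanyl enzyme, is known as an interferon-inducible gene. It stood at 130.5 and 120.0 CPM in 4-cell controls and 51.5 and 54.6 CPM in 4-cell edited embryos (log2 fold change -1.22, SE 0.234, adjusted p-value 0.000581). Among 8-cell libraries WARS1 stood at 70.1 and 91.0 CPM in controls and 61.7 and 69.5 CPM in edited embryos, and the change of -0.28 was not called. Interferon-stimulated genes moved in the same libraries: 24 of 26 tested were called lower at the 4-cell and 23 of 26 at the 8-cell stage, with medians of -2.36 and -3.05. The shares of all genes called lower were 25.8% and 14.5%. Their summed level was 18777 and 11789 CPM in 4-cell controls, 1154 and 1577 CPM in 4-cell edited embryos, 5087 and 7993 CPM in 8-cell controls, and 795 and 876 CPM in 8-cell edited embryos. Their part in the level of WARS1 was not tested.

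TARS1, the threonyl enzyme, stood at 199 and 246 CPM in 4-cell controls and 131 and 153 CPM in 4-cell edited embryos, a log2 fold change of -0.64 (SE 0.216, adjusted p-value 0.024). The call of TARS1 held in 12 of 20 other settings, and it was lost with TMM factors (0.0822), edgeR, DESeq2, median centring, the marker covariate and only the libraries compared, and without the second 4-cell control or the first 4-cell edited library. VARS1, the valyl enzyme, stood at 12.6 and 13.8 CPM in 4-cell controls and 8.21 and 5.56 CPM in 4-cell edited embryos (-0.87, SE 0.339, adjusted p-value 0.0472). That call of VARS1 held in 6 of 20 other settings: it was lost with TMM factors (0.0535), edgeR, the replicate block (0.0663), no filter, median centring, the marker covariate and only the libraries compared, and without either 4-cell control, the second 4-cell edited or any 1 of the 4 8-cell libraries. In 8-cell embryos neither was called, though TARS1 (178 and 171 against 116 and 122 CPM) and VARS1 (11.9 and 13.6 against 8.10 and 7.64 CPM) again had groups that did not overlap, as 32.7% of all genes tested had in that direction and 27.7% in the other. NARS1, the asparaginyl enzyme, lay between 111 and 199 CPM over all libraries, with changes of 0.28 and 0.10 that were not called. CARS1, the cysteinyl enzyme, lay between 2.75 and 8.29 CPM, with changes of -0.74 and -0.38 that were not called.

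**Figure D3:**
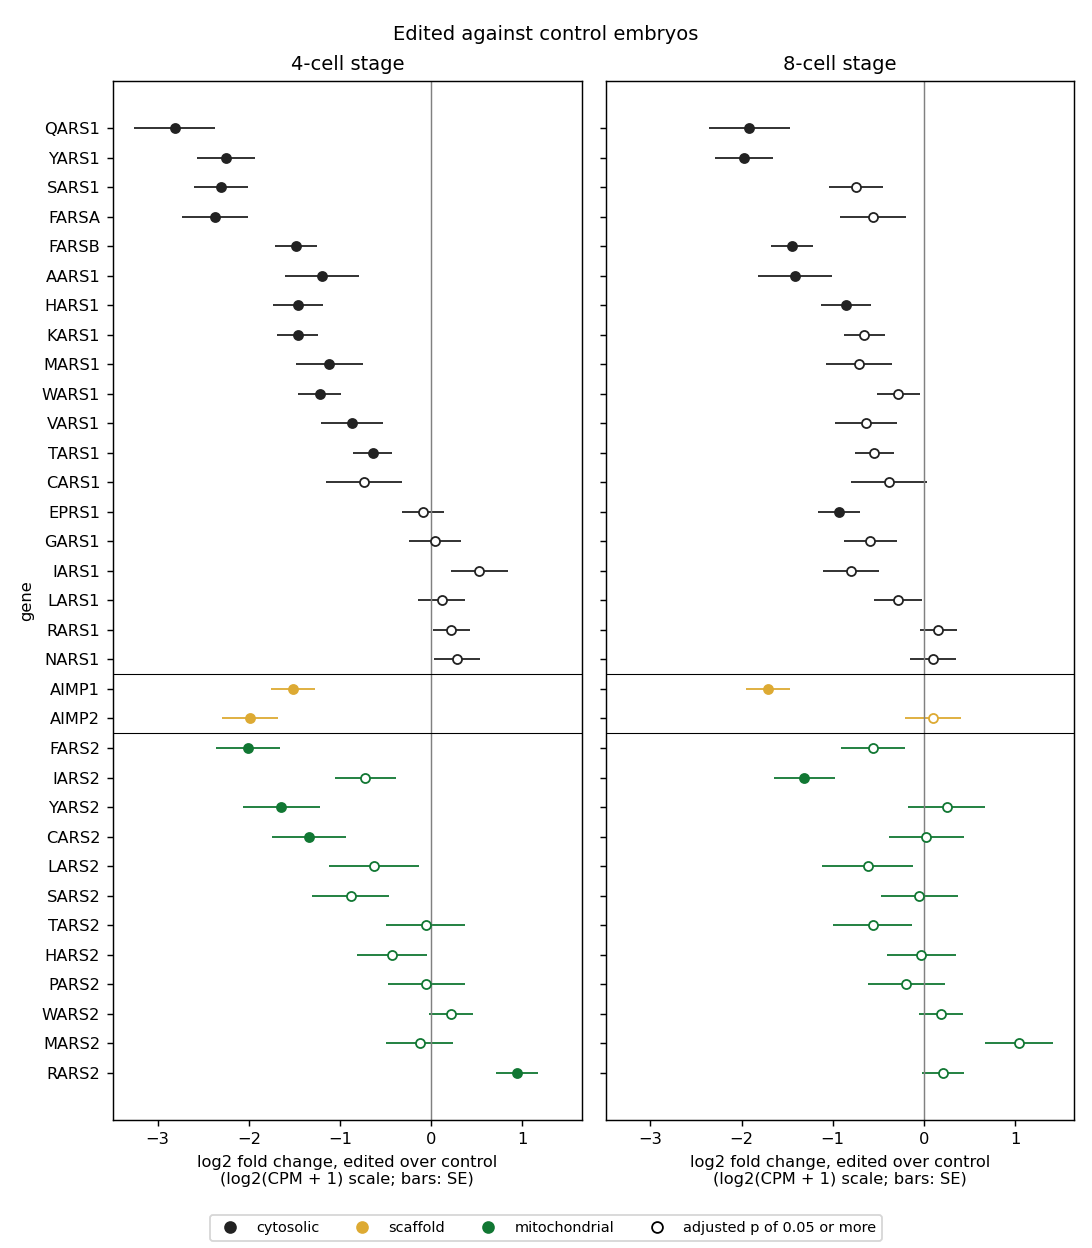
Log2 fold change of edited over control embryos for 33 tested members at the 4-cell (left) and 8-cell stage (right), on the log2(CPM + 1) scale with bars of 1 standard error, filled where the adjusted p-value was under 0.05. All 18 filled points at the 4-cell stage except RARS2, and all 8 at the 8-cell stage, lie to the left of 0.

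Among the mitochondrial enzymes, AARS2, EARS2 and VARS2 had means under 1 CPM and were not tested. AARS2 stood at 0.985 and 1.03 CPM in 4-cell controls and 0.492 and 0.497 CPM in 4-cell edited embryos, EARS2 lay between 0.292 and 1.57 CPM and VARS2 between 0.120 and 1.96 CPM over the libraries. The 13 tested enzymes gave 3 called lower and 1 higher at the 4-cell stage and 1 lower and 0 higher at the 8-cell stage. Their median log2 fold changes were -0.43 and -0.03. The shares over all genes were 25.8% lower and 18.9% higher in 4-cell embryos, and 14.5% and 1.08% in 8-cell embryos. The 4-cell count of lower calls lies near its share. The other counts, of 1 or 0 genes among 13, are too small to be set apart from theirs, and this was not tested.

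In the main limma fit RARS2, the mitochondrial arginyl enzyme, was the only member called higher with editing. With median centring other members were called higher too, as given with the limits below. RARS2 stood at 198 and 279 CPM in 4-cell controls and at 431 and 475 CPM in 4-cell edited embryos. At the 8-cell stage RARS2 stood at 419 and 382 CPM in controls and at 404 and 528 CPM in edited embryos. The 4-cell groups did not overlap, as 33.5% of all genes did not with edited libraries higher and 37.5% with edited libraries lower, and RARS2 was called (log2 fold change 0.94, SE 0.227, adjusted p-value 0.00318), and the 8-cell groups overlapped (0.21, adjusted p-value 0.602). The difference between the stages was not called for RARS2 (-0.73, adjusted p-value 0.186).

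FARS2, which charges phenylalanine in mitochondria as a lone subunit, stood at 26.6 and 20.6 CPM in 4-cell controls and 5.35 and 4.77 CPM in 4-cell edited embryos. The log2 fold change was -2.01 (SE 0.35, adjusted p-value 0.000272). In 8-cell embryos FARS2 stood at 8.95 and 9.79 CPM in controls and at 7.56 and 4.79 CPM in edited embryos, and the change of -0.56 was not called.

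YARS2 and CARS2, the mitochondrial tyrosyl and cysteinyl enzymes, had lower values at the 4-cell stage. YARS2 stood at 3.27 and 3.81 CPM in 4-cell controls and at 0.174 and 0.790 CPM in 4-cell edited embryos (log2 fold change -1.65, SE 0.423, adjusted p-value 0.00493). CARS2 stood at 17.1 and 12.5 CPM in 4-cell controls and 7.87 and 3.31 CPM in 4-cell edited embryos (-1.34, SE 0.406, adjusted p-value 0.0136). The call of YARS2 was lost without the first 4-cell edited library, and that of CARS2 without the first 4-cell control or the second 4-cell edited library. Among 8-cell libraries both overlapped between the groups, YARS2 with 2.80 and 1.48 CPM in controls against 1.79 and 3.77 CPM in edited embryos, and their changes of 0.25 and 0.03 were not called.

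IARS2, the mitochondrial isoleucyl enzyme, was the only mitochondrial member called at the 8-cell stage. It stood at 43.4 and 42.2 CPM in 8-cell controls and at 12.9 and 21.4 CPM in 8-cell edited embryos (log2 fold change -1.31, SE 0.337, adjusted p-value 0.0123). At the 4-cell stage IARS2 stood at 33.3 and 67.6 CPM in controls and 29.9 and 27.1 CPM in edited embryos. These groups did not overlap either, but the controls were far apart and the change of -0.72 was not called (adjusted p-value 0.0943). The 8-cell call of IARS2 was lost without the second 8-cell control or the first 8-cell edited library, and also with no filter on low values.

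The other mitochondrial enzymes were not called with editing at either stage in the main limma fit. MARS2, the methionyl enzyme, stood at 0.572 and 0.887 CPM in 8-cell controls and at 2.42 and 2.70 CPM in 8-cell edited embryos, a log2 fold change of 1.05 that missed the threshold (adjusted p-value 0.0715), while its 4-cell libraries lay between 2.72 and 3.36 CPM. WARS2 stood between 36.8 and 61.5 CPM, with changes of 0.22 and 0.19. HARS2, LARS2, PARS2, SARS2 and TARS2 had changes between -0.88 (SARS2, 4-cell stage) and -0.03 (HARS2, 8-cell stage), all at levels of at most 10.0 CPM.

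The cytosolic and mitochondrial enzymes were then set against each other within each library, a comparison that does not depend on how libraries are scaled. The cytosolic enzymes summed to 2415 and 2900 CPM in 4-cell controls, 1907 and 1981 CPM in 4-cell edited embryos, 2455 and 2301 CPM in 8-cell controls, and 1859 and 1820 CPM in 8-cell edited embryos. The mitochondrial enzymes summed to 352 and 477, 558 and 595, 573 and 538, and 540.1 and 658 CPM in the same order. The cytosolic sum was lower in every edited than in every control library, and the mitochondrial sum was lowest in the 4-cell controls.

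Mitochondrial enzymes thus made up 13.4% ± 0.987 (SD, n = 2) of synthetase CPM in 4-cell controls, 22.9% ± 0.326 (SD, n = 2) in 4-cell edited embryos, 18.9% ± 0.0191 (SD, n = 2) in 8-cell controls, and 24.5% ± 2.85 (SD, n = 2) in 8-cell edited embryos. The share was higher in edited than in control libraries at both stages without overlap, and no p-value is given for a score over genes chosen with results known. RARS1 and RARS2 weigh heavily in these sums: RARS2 made up 56.2% and 58.6% of the mitochondrial sum in 4-cell controls and 71.0% to 80.3% in the other libraries. With both arginyl enzymes left out the share was 7.85% ± 0.195 (SD, n = 2) in 4-cell controls, 8.99% ± 0.766 (SD, n = 2) in 4-cell edited embryos, 8.30% ± 0.141 (SD, n = 2) in 8-cell controls, and 10.7% ± 0.548 (SD, n = 2) in 8-cell edited embryos. Gene lengths were not used, so a sum weights long transcripts more, and it is compared here between libraries only.

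**Figure D4:**
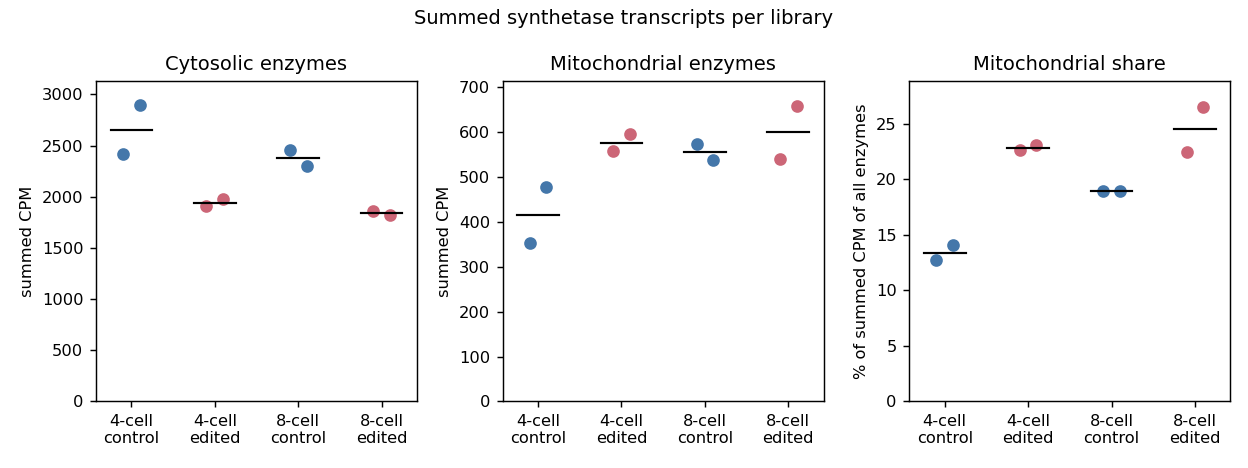
Summed CPM of the 20 cytosolic enzymes (left), of the 16 mitochondrial enzymes (middle), and the mitochondrial percentage of both sums (right), with a point per library, a line at each group's mean and axes from 0. Edited libraries have cytosolic sums of 1820 to 1981 CPM against 2301 to 2900 CPM in controls, and mitochondrial shares of 22.5% to 26.5% against 12.7% to 19.0%.

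Cytosolic and mitochondrial enzymes were paired by the first letter of their symbols, which gave pairs for 15 amino acids. Proline, charged by EPRS1 in the cytosol and by PARS2 in mitochondria, was not paired in this way and is left out. For each pair the log2 ratio of mitochondrial to cytosolic CPM was taken per library. At the 4-cell stage the ratio was higher in both edited than in both control libraries for 6 amino acids, lower for 4, and overlapping for 5. At the 8-cell stage it was higher for 6, lower for 2 and overlapping for 7. Of the levels of all single genes tested, 33.5% were higher and 37.5% lower without overlap at the 4-cell stage. In 8-cell embryos these shares were 27.7% and 32.7%. No such share was taken for ratios, and no pair was tested. The median edited-minus-control difference of the ratio was 0.31 and 0.50, so the pairs did not move as a block.

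The arginyl, tryptophanyl, seryl, histidyl and threonyl pairs were among those with a higher ratio in 4-cell edited embryos. For tryptophan the log2 ratio of WARS2 to WARS1 was -1.83 and -1.52 in 4-cell controls and -0.19 and -0.23 in 4-cell edited embryos. For serine the log2 ratio of SARS2 to SARS1 was -4.76 and -5.01 in 4-cell controls and -3.85 and -3.67 in 4-cell edited embryos. TARS2, the mitochondrial partner of TARS1, stood at 4.35 and 5.42 CPM in 4-cell controls, against 4.28 and 5.00 CPM in 4-cell edited embryos.

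Lower ratios in 4-cell edited embryos were found for the cysteinyl, phenylalanyl and leucyl pairs, with mean differences of -0.62, -0.67 and -1.52. In 8-cell embryos the valyl pair was lower (-1.44) and the phenylalanyl pair higher (0.78). The isoleucyl pair was lower at both stages. The log2 ratio of IARS2 to IARS1 was -0.03 and -0.03 in 4-cell controls and -0.98 and -1.64 in 4-cell edited embryos, and -0.56 and -0.82 against -1.55 and -0.91 at the 8-cell stage. The tyrosyl pair fell together at the 4-cell stage, where YARS1 and YARS2 were both called lower and their ratio overlapped between groups. In 8-cell embryos the log2 ratio of YARS2 to YARS1 was higher in edited libraries, at -3.29 and -4.40 in controls against -2.30 and -0.41 in edited embryos. The methionyl pair had its largest shift at the 8-cell stage, where the log2 ratio of MARS2 to MARS1 was -5.26 and -4.78 in controls and -2.41 and -2.44 in edited embryos. At the 4-cell stage that ratio overlapped between groups.

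HARS1 and HARS2 are the only members that are next to each other among protein-coding genes in RefSeq's annotation (assembly ARS-UCD2.0). HARS2 stood at 10.0 and 9.47 CPM in 4-cell controls and 6.83 and 7.14 CPM in 4-cell edited embryos, with 5.84 and 3.55 against 3.38 and 5.84 CPM in the 8-cell groups. The neighbours thus differed in size of change, with -0.43 and -0.03 for HARS2, neither called, beside -1.46 and -0.85 for HARS1. The difference between the 2 genes was not tested.

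Stage was compared within each condition, using the same libraries as the comparisons above. In controls 4 of 35 tested members changed from the earlier to the later stage, where 9.02% of all genes were called, 6.27% lower and 2.75% higher at the later stage. SARS1, FARS2 and MARS2 were lower at the 8-cell stage (log2 fold changes -1.11, -1.24 and -1.28, adjusted p-values 0.0347, 0.041 and 0.0438), and RARS2 was higher (0.76, adjusted p-value 0.0469). In each of these the 4-cell control libraries were the ones that also differed from 4-cell edited embryos, except MARS2, where the 8-cell controls stood apart from the other 6 libraries. In edited embryos 2 of 35 were called, where 5.18% of all genes were, 3.73% lower and 1.45% higher: AIMP1 was lower at the 8-cell stage (-0.90, adjusted p-value 0.0423) and AIMP2 higher (1.11, adjusted p-value 0.0495). With edgeR on the recovered reads none of these 6 was called, and 12 and 8 of the 38 members had an unadjusted p-value under 0.05. Of the 14629 genes in that edgeR fit only 86 and 324 were called, and 3319 and 2865 had an unadjusted p-value under 0.05. Leaving out a library also ended calls: none of the 3 mitochondrial calls in controls stood without the first 4-cell control library, either 4-cell edited library or either 8-cell control library. The call of SARS1 was lost without any 1 of the 4-cell libraries or the first 8-cell control, that of AIMP2 without any 1 of the 4 edited libraries, and that of AIMP1 without any 1 of the 4 edited or either 8-cell control library.

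Other genes of the charging pathway were read from lists beside the members. Of 15 tested accessory genes, which trim mischarged tRNAs, transfer groups on charged tRNAs or free stalled peptides from tRNA, 4 were called lower and 1 higher at the 4-cell stage and 5 lower and 1 higher at the 8-cell stage. Over all genes 25.8% were called lower and 18.9% higher in 4-cell embryos, and 14.5% and 1.08% in 8-cell embryos, so the 4-cell share called lower is that of all genes. DTD1, a proofreading enzyme that removes D-amino acids from tRNA, stood at 170.4 and 124 CPM in 4-cell controls and 18.4 and 27.6 CPM in 4-cell edited embryos. PTRH2, a peptidyl-tRNA hydrolase, stood at 101 and 66.9 against 16.4 and 30.1 CPM. SEPSECS, which makes selenocysteine on its tRNA, was higher in edited embryos at both stages, with 134 and 179 against 232 and 272 CPM at the 4-cell and 188 and 145 against 278 and 290 CPM at the 8-cell stage.

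Of 39 tested genes of tRNA maturation and export, 11 were called lower and 2 higher at the 4-cell stage, and 6 lower and 1 higher at the 8-cell stage. The share called lower was close to that over all genes at both stages (25.8% and 14.5%), and the 4-cell share called higher was below it (18.9%). ELAC1, a tRNA-processing nuclease, had an average log2 fold change of -3.14, with 44.4 and 32.3 CPM in 4-cell controls against 2.49 and 2.19 CPM in 4-cell edited embryos. POP5, a subunit of RNase P, stood at 142 and 129 against 18.5 and 23.5 CPM in the same groups. RPP21, another RNase P subunit, was higher with an average log2 fold change of 0.50.

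Cytosolic synthetase genes are known targets of ATF4, the transcription factor of the amino acid response, and 27 genes listed for that response were tested. At the 4-cell stage 6 were called lower and 2 higher, and at the 8-cell stage 6 lower and 0 higher, with medians of -0.09 and -0.27. The 4-cell share called lower lay near the 25.8% of all genes and the share called higher below the 18.9%, while 14.5% of all genes were called lower in 8-cell embryos. ATF4 itself had log2 fold changes of -1.07 (SE 0.225, adjusted p-value 0.00122) and -0.28 (not called). On the average of both stages 10 of the 27 were called lower and 2 higher, where 27.2% and 17.6% of all genes were. Within the list PHGDH, which opens serine synthesis, fell by 3.29 on the log2 scale over both stages, and SLC3A2, the heavy chain of amino acid transporters, by 1.57. SLC38A2 fell by 1.90. EIF2AK2, a kinase that senses double-stranded RNA and not amino acids, is counted in the list and fell by 2.61. DDIT3, which encodes the stress factor CHOP, and PSPH, which ends serine synthesis, rose by 0.69 and 0.63. The members of the list did not share a direction, with 16 of 27 average changes below 0 and 11 above, though most called ones were lower.

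The counts of called members rest on scaling and on markers in the following way. With each library centred on its median gene, the median change of all genes moved from -0.02 to 0.22 at the 4-cell and from 0.00 to 0.23 at the 8-cell stage. The share of calls over all genes that were higher moved from 42.2% to 55.5% and from 6.91% to 29.3%. Under that scaling, calls of TARS1 and VARS1 at the 4-cell and of EPRS1 and HARS1 at the 8-cell stage were lost. IARS1 was called higher at the 4-cell stage (0.77, adjusted p-value 0.0424) and MARS2 at the 8-cell stage (1.27, adjusted p-value 0.0272). On the average, calls of TARS1, VARS1 and EPRS1 were lost. Called higher there were MARS2 (0.69, adjusted p-value 0.035), WARS2 (0.44, adjusted p-value 0.0472) and RARS1 (0.42, adjusted p-value 0.0431). DESeq2 also called MARS2 higher at the 8-cell stage (1.87, adjusted p-value 0.0246). A further limma fit took as a covariate the sum of log2(CPM + 1) over the cumulus and granulosa markers, which is not their summed CPM. With it none of the 35 members was called at either stage (5 and 4 had an unadjusted p-value under 0.05, all lower). Of all 12129 genes 2 and 20 were called in that fit, and 1475 and 971 had an unadjusted p-value under 0.05.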

How the data were processed

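RNA was measured in 8 libraries of 5 pooled embryos; mRNA was amplified by a Smart-seq method and made into Nextera XT libraries, per the labels' protocols. The submitters' processing notes name Trim Galore 0.6.7, HISAT2 2.2.1 and featureCounts 2.0.1; genome build, annotation and filters are not given in the sources used here, so no coordinates are printed. The deposited values are CPM, made by the authors by dividing whole reads by a library size, although the table is named for raw counts: in every column 100% of positive values are whole multiples of a step within 0.05 reads. Of 12 columns, 4 match no sample and were not used.

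Main values came from limma 3.58.1 (R 4.3.3) (trend option) applied to log2 of the deposited CPM + 1, with 1 mean per group over all 8 libraries, on 12129 genes averaging 1 CPM or more, and Benjamini-Hochberg adjustment over all of them. Alternatives were edgeR 4.0.16 (quasi-likelihood, TMM) and DESeq2 1.42.0 on recovered reads, other pseudocounts, filters, scalings, a replicate block, a marker covariate and leaving out each library. The fit was tested on simulated data. Since cDNA was amplified and carries no molecular identifiers, reads are not separate molecules.

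The members, gene lists and tests were chosen with earlier results of these data known. Of the members, 2 enter the fits, counts and sums and are not reported here by name; each other member is named. Library values are given for called members (up to 5 per class, direction and stage by p-value), for members called in the difference between stages, and for cytosolic and mitochondrial partners of which 1 was called over both stages; values of other members were added after they were seen. From each list up to 4 called genes per direction were eligible. ATF4, the marker genes, EEF1E1 and TARS3 were named outside that rule after their values were seen. Planned comparisons of promoter and protein sequences were not run, and no sequence is printed. Replicate numbers come from the titles, which do not say what they stand for.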

Additional observations from a re-analysis of the deposited data

Results flagged for a closer look

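The effect of editing on AIMP2 differed between the stages by limma's test of that difference (2.09 on the log2 scale, 8-cell effect minus 4-cell effect, SE 0.437, adjusted p-value 0.026), with lower values in both edited libraries at the 4-cell stage and edited libraries between the controls at the 8-cell stage. The call held under 10 of 19 other settings and the value ranged from 1.63 to 2.54 over them. It was lost with edgeR, without a filter on low values, with the marker covariate, and without either 4-cell edited library, either 8-cell edited library, the first 4-cell control or the first 8-cell control library. Few genes of any kind were called in this comparison under these settings. EdgeR called 18 of 14629, the fit without a filter 0 of 16586, and the fit with the marker covariate 44 of 12129. Groups of 2 libraries are too small for a check of single outlying libraries.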

How the results depend on the processing

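No called value of a member changed direction under the alternatives run. Of 53 called values (35 members, 6 comparisons), DESeq2 kept 49, TMM factors 44, edgeR 40 and no filter on low values 39, and leaving out a library kept 39 to 45. With the cumulus and granulosa marker covariate 0 of 53 were kept: both the cytosolic and the mitochondrial count were 0 at the 4-cell stage, the 8-cell stage, on the average and for stage in controls. This covariate moves with the groups, so the 2 cannot be told apart; over all genes it left 2, 20 and 1 calls.

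Leaving out a library gave 9 to 11 cytosolic enzymes at the 4-cell stage (13 with all libraries), 2 to 8 at the 8-cell stage (6), 11 to 15 on the average (14), 0 to 3 for the difference between stages (0), and 0 to 1 for stage in controls (1) and in edited embryos (0). Mitochondrial enzymes numbered 3 to 4, 0 to 1, 3 to 4, 0 to 1, 0 to 2 and 0 in the same order.

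For the difference between stages the cytosolic count was 2 with DESeq2 and with median centring, and 1 with a pseudocount of 5 or a mean of at least 5 CPM; the mitochondrial count was 1 with DESeq2. For stage in controls the cytosolic count was 3 with DESeq2 and with a pseudocount of 5. Both counts were 0 with edgeR, without a filter and with only the libraries compared. Over all genes these settings called 86 of 14629, 1 of 16586 and 161 of 12129. For stage in edited embryos the cytosolic count was 2 with only the libraries compared, and the mitochondrial count 1 with DESeq2. At the 8-cell stage the mitochondrial count was 2 with DESeq2 and with median centring and 0 without a filter, and on the average it was 5 with centring. The 4-cell edited-minus-control difference in log2 mitochondrial over cytosolic CPM was 0.94, 0.48 as a mean of log2(CPM + 1), and 0.21 without RARS1 and RARS2, an alternative chosen after seeing the data. Apart from what each setting leaves out, the cause was not tested.

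The replicate block kept 46 of 53 calls, and the mitochondrial count for stage in controls was 1; same-numbered libraries correlated at 0.108, -0.0863, -0.302 and 0.0234 in the 4 comparisons, so the numbers were not taken as pairs. With the 8-cell control numbers crossed, chosen after seeing the data, the replicate block kept 53 of 53, with cytosolic counts of 2 for the difference and for stage in controls and mitochondrial counts of 5 on the average, 1 for the difference and 1 for stage in edited embryos.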

Other observations

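The synthetases fall into structural classes I and II, which differ in the fold of their catalytic domain. EPRS1, which charges both glutamate (class I) and proline (class II), was counted in class I only. At the 4-cell stage 5 of 10 cytosolic genes of class I and 8 of 10 of class II were called lower, with median log2 fold changes of -0.80 and -1.33. At the 8-cell stage 3 of 10 were called lower in each, with medians of -0.67 and -0.62. Over all genes 25.8% were called lower in 4-cell and 14.5% in 8-cell embryos. The difference between the classes was not tested.

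The 8-cell control libraries differed in some follicle-cell transcripts, with CYP11A1 at 29.1 and 133 CPM and FST at 7.75 and 66.2 CPM in the first and the second library. Other markers were close or higher in the first, such as SERPINE2 at 171 and 176 CPM, STAR at 154 and 143 CPM and CD44 at 61.1 and 24.2 CPM. All listed markers together summed to 639 and 933 CPM. In the same libraries AARS1 stood at 8.15 and 14.5 CPM, AIMP2 at 35.2 and 66.7 CPM, SARS1 at 45.4 and 62.2 CPM, FARSB at 280 and 240 CPM, and YARS1 at 27.5 and 31.1 CPM. Whether the markers have a part in these differences was not tested.

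TARS3, a further cytosolic threonyl enzyme by its symbol and outside the rule, stood at 4.72 and 3.87 CPM in 4-cell controls and 2.08 and 3.22 CPM in 4-cell edited embryos, and was not called. Whether the authors' counting divides reads between TARS1 and TARS3 is not given in the sources used here.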
